A study of Mus musculus with 6 samples.

Results

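Macrophage transcripts were followed in RNA prepared from mouse cardiomyocytes, the contractile cells of heart muscle. The list held 10 marker genes (Lyz2, Cd68, Csf1r, Cd14, Mrc1, C1qa, C1qb, C1qc, Tyrobp and Fcer1g), found by their symbols among the 46450 gene symbols of the deposited table, and all 10 were present. The 6 libraries were 3 from TFEB-/- and 3 from wild-type C57BL/6 mice aged 3 months, with no other allele or treatment named in the labels. Whether Tfeb was deleted in every cell or in heart muscle cells alone, the sex of the mice, and whether every library is of a different animal are not given in the sources used here, so the spread between libraries may be partly technical. The study asks how loss of TFEB, a transcription factor of lysosomal and autophagy genes, changes heart muscle cells. The macrophage list asks how much RNA of another cell type the preparations held, and whether it differed between the genotypes.

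The heart holds resident macrophages, which take up debris of neighbouring muscle cells, and others that arise from blood monocytes. They depend on signals through the CSF1 receptor, bear surface receptors for microbial and glycoprotein ligands, make the recognition molecule of the classical complement pathway, and carry adaptor proteins that link activating receptors to tyrosine kinases. Isolation of cardiomyocytes does not remove every other cell, so a preparation can carry their RNA. In RNA of a mixed preparation, a difference in the number of macrophages and a difference in RNA per macrophage cannot be told apart. Nor do such values show which cells made the transcripts of a marker.

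Values are CPM, counts scaled to a common library total, that the authors rounded to whole numbers, so a value stands for up to 0.5 CPM more or less, and a gene at 0 is one below about 0.5 CPM. The reads behind each value are unknown, and no counting interval can be given. Each library summed to between 999505 and 999655 CPM. Tfeb itself was at 6, 5 and 7 CPM in TFEB-/- libraries and at 17, 30 and 23 CPM in wild-type libraries (log2 fold change −1.85, SE 0.24, limma adjusted p = 0.0267). Transcripts of the mitochondrial genome made up 22.2%, 30.3% and 25.3% of TFEB-/- libraries and 30.7%, 33.9% and 44.6% of wild-type libraries. A smaller mitochondrial share leaves more of the fixed total to all other genes, and the median log2 fold change of the 12437 genes tested was 0.24 rather than 0. Genes that reached 1 CPM in 3 or more libraries were tested by limma on log2(CPM + 0.5), and a gene was called at an adjusted p below 0.05. The added 0.5 shrinks fold changes of low genes, but rounding to whole numbers can move them either way. For Tyrobp, rounding alone allows a ratio of means as low as 1. Errors after ± are SD over n = 3 libraries.

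Macrophage markers were low in every preparation, and their sum on the deposited scale was higher in TFEB-/- libraries, a separation lost on both other scales examined. A positive log2 fold change was found in 9 of 10 members, against 79.8% of all tested genes, and 1 of 10 passed the threshold, against 3.92% of all tested genes called higher. The 10 genes lay between 0 and 20 CPM in all 6 libraries. Their sum was 46, 55 and 43 CPM in TFEB-/- libraries, against 21, 26 and 32 CPM in wild-type libraries. As deposited the groups did not overlap, and the means were 48.0 ± 6.24 CPM in TFEB-/- and 26.3 ± 5.51 CPM in wild type, a ratio of 1.82. Without Lyz2, the most abundant member, the sum was 32, 35 and 27 CPM in TFEB-/- libraries and 15, 19 and 23 CPM in wild-type libraries, a ratio of 1.65. Single members were near the limit of what whole numbers can show, and the only one past the threshold was Tyrobp, which differed by 1 rounding step.

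**Figure D1:**
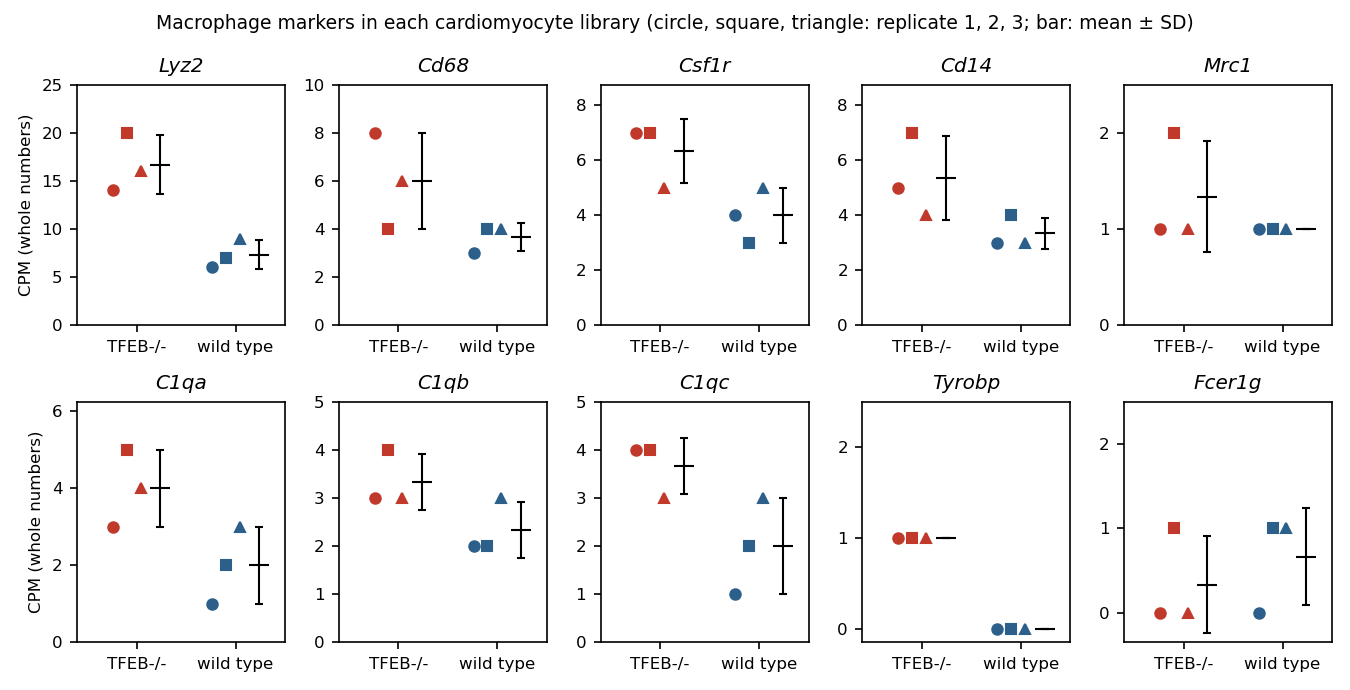
CPM of each of the 10 macrophage markers (vertical axis, whole numbers, a scale of its own for each gene) in the TFEB-/- libraries (red, left) and wild-type libraries (blue, right), with the mean and SD over 3 libraries in black. Lyz2 lies between 14 and 20 CPM in TFEB-/- and between 6 and 9 CPM in wild type, and for 7 other genes the lowest TFEB-/- value equals the highest wild-type value.

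Lyz2 encodes lysozyme M, an enzyme of macrophages and granulocytes that cuts bacterial cell walls. The gene (ENSMUSG00000069516; GRCm38 chromosome 10, 117277331 to 117282321, minus strand; a protein-coding gene) stood at 14, 20 and 16 CPM in TFEB-/- libraries and at 6, 7 and 9 CPM in wild-type libraries. All TFEB-/- values lay above all wild-type values, with means of 16.7 ± 3.06 CPM in TFEB-/- and 7.33 ± 1.53 CPM in wild type. The ratio of means was 2.27, and rounding alone allows 2.06 to 2.51. The log2 fold change was 1.13 (SE 0.20), with an adjusted p of 0.0544 in limma, just outside the threshold. The call was made with a filter of 5 CPM (adjusted p = 0.00992) and with robust hyperparameters (adjusted p = 0.00768), within a range of 0.00768 to 0.169 over 14 alternatives. Lyz1, the near-identical neighbour that encodes the lysozyme of Paneth cells in the gut, was listed at 0 in all 6 libraries, and how reads shared by the pair were assigned is not known.

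Cd68, a heavily glycosylated protein of macrophage endosomes and lysosomes, was at 8, 4 and 6 CPM in TFEB-/- libraries and at 3, 4 and 4 CPM in wild-type libraries. The groups met at 4 CPM. The means were 6 ± 2 CPM in TFEB-/- and 3.67 ± 0.577 CPM in wild type (log2 fold change 0.60, SE 0.27, limma adjusted p = 0.254). The Cd68 difference was therefore not called.

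Of the surface receptors, none passed the threshold. Csf1r encodes the receptor for the macrophage growth factors CSF1 and IL-34, and was at 7, 7 and 5 CPM in TFEB-/- libraries and at 4, 3 and 5 CPM in wild-type libraries. The log2 fold change was 0.61 (SE 0.22, limma adjusted p = 0.194), with the groups meeting at 5 CPM. Csf1r overlaps Hmgxb3 on the opposite strand, and whether strand was used in the authors' counting is not stated. Cd14, a co-receptor for bacterial lipopolysaccharide, was at 5, 7 and 4 CPM in TFEB-/- libraries and at 3, 4 and 3 CPM in wild-type libraries (log2 fold change 0.58, SE 0.23, limma adjusted p = 0.215). Here too the lowest TFEB-/- value equalled the highest wild-type value. Mrc1, the mannose receptor that marks resident macrophages in many tissues, was at 1, 2 and 1 CPM in TFEB-/- libraries and at 1 CPM in each wild-type library, so a single rounding step in 1 library was its whole difference.

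C1qa, C1qb and C1qc encode the 3 chains of C1q, which starts the classical complement cascade and is made mainly by macrophages. The genes lie side by side on the minus strand of GRCm38 chromosome 4, C1qb at 136880129 to 136886187, C1qc at 136889804 to 136893065 and C1qa at 136895917 to 136898803. C1qa was at 3, 5 and 4 CPM in TFEB-/- libraries and at 1, 2 and 3 CPM in wild-type libraries. C1qb was at 3, 4 and 3 CPM in TFEB-/- libraries and at 2, 2 and 3 CPM in wild-type libraries. C1qc was at 4, 4 and 3 CPM in TFEB-/- libraries and at 1, 2 and 3 CPM in wild-type libraries. The same libraries were high or low in each: wild type 1 had the lowest or joint lowest value of all 3 genes, TFEB-/- 2 had the highest or joint highest, and wild type 3 was at 3 CPM for each chain, the lowest TFEB-/- value. The log2 fold changes were 0.91 (SE 0.37) for C1qa, 0.44 (SE 0.19) for C1qb and 0.81 (SE 0.34) for C1qc, with limma adjusted p-values of 0.227, 0.235 and 0.236. The sum of the 3 chains was 10, 13 and 10 CPM in TFEB-/- libraries, against 4, 6 and 9 CPM in wild-type libraries. With median-ratio scaling it was 8.45, 12.8 and 9.41 in TFEB-/- libraries, against 3.93, 6.42 and 11.0 in wild-type libraries, and the groups overlapped, as they did without mitochondrial transcripts.

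Tyrobp and Fcer1g encode small adaptors, DAP12 and the Fc receptor gamma chain, that carry an ITAM motif and pass signals from activating receptors to the kinase SYK. Tyrobp (ENSMUSG00000030579; GRCm38 chromosome 7, 30413760 to 30417585, plus strand) was at 1 CPM in each TFEB-/- library and listed at 0 in each wild-type library. It passed the threshold (limma adjusted p = 9.93e-07), and it had entered the test only through its TFEB-/- values. A gene with no spread within either group gets a very small p-value from whole numbers, and 71 genes of the table had the same pattern of 1 against 0 CPM. With robust hyperparameters the call was lost (adjusted p = 0.0794), within a range of 8.05e-07 to 0.0794 over 13 alternatives. Fcer1g was at 0, 1 and 0 CPM in TFEB-/- libraries and at 0, 1 and 1 CPM in wild-type libraries, the only member with a lower mean in TFEB-/- (limma adjusted p = 0.637). The adaptor pair thus gave opposite signs at the edge of detection.

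**Figure D2:**
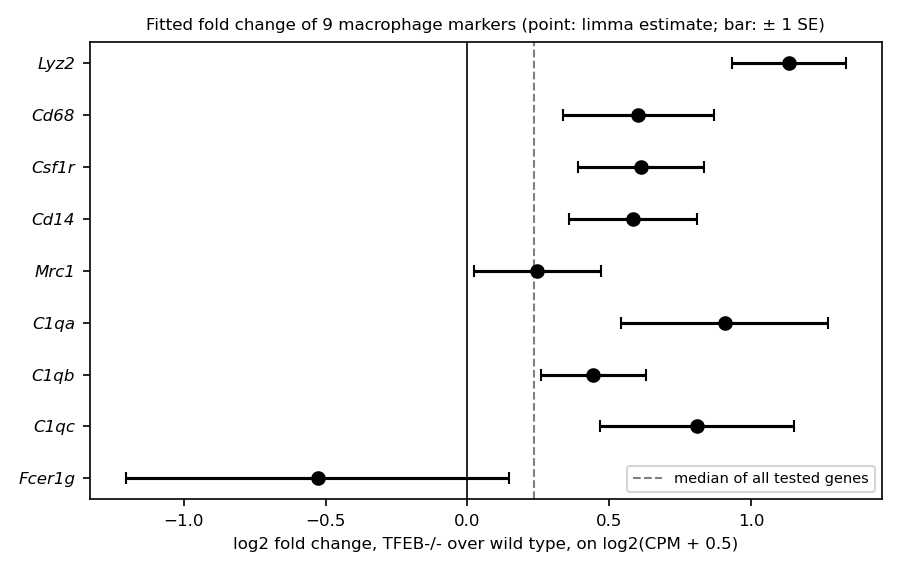
Fitted log2 fold change, TFEB-/- over wild type, of 9 macrophage markers (horizontal axis; points are limma estimates on log2(CPM + 0.5), bars ± 1 SE), with the median of all tested genes, 0.24, as a dashed line. Lyz2 is farthest to the right at 1.13, 6 genes lie between 0.44 and 0.91, Mrc1 lies on the dashed line and Fcer1g lies below 0; Tyrobp, listed at 0 in every wild-type library, is not drawn.

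Read against all genes tested, the counts over the list were as follows. The threshold was passed by 1 of 10 members, higher in TFEB-/-, while 3.92% of all tested genes were called higher and 0.523% lower, 4.44% in all. With the libraries rescaled by their median ratio, 481 genes were called higher and 200 lower, against 487 and 65 on the deposited scale. Every TFEB-/- value lay above every wild-type value in 2 of 10 members (Lyz2 and Tyrobp) and in 21.2% of all tested genes. Every TFEB-/- value lay at or above every wild-type value, with some difference, in 9 of 10 members and in 37.4% of all tested genes; the opposite held in 0 of 10 members and 7.07% of all tested genes. Before adjustment, limma gave a p below 0.05 to 3 of 10 members (Lyz2, Csf1r and Tyrobp), and to 21.1% of all genes in the higher and 2.3% in the lower direction. The median log2 fold change was 0.61 over the 10 members and 0.60 over the 9 without Tyrobp, against 0.24 over all tested genes and 0.23 over the 6473 genes whose mean lay in the range of the members, 0.5 to 12 CPM. Of those 6473 genes 5.18% were called higher. In 41.5% of them every TFEB-/- value lay at or above every wild-type value, with some difference. In exact two-sided permutation tests of single members, Lyz2 and Tyrobp reached p = 0.1, the smallest that 3 against 3 libraries allow, and the other 8 members gave p-values from 0.2 to 1.

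The separation of the summed markers depended on how the libraries were scaled. With median-ratio scaling the sum was 38.8, 54.1 and 40.5 in TFEB-/- libraries, against 20.6, 27.8 and 39.1 in wild-type libraries, so that wild type 3 lay above TFEB-/- 1. With CPM recomputed without mitochondrial transcripts it was 59.2, 78.9 and 57.6 CPM in TFEB-/- libraries, against 30.3, 39.3 and 57.8 CPM in wild-type libraries, and wild type 3 lay above TFEB-/- 3. The ratio of means was 1.52 on the first of these scales and 1.53 on the second. Wild type 3 had both the highest sum of macrophage markers among wild-type libraries and the highest mitochondrial share, 44.6%, and the part of the mitochondrial share in the result was not tested. The median log2 fold change of the members lay 0.37 above that of all genes as deposited, 0.38 with median-ratio scaling and 0.40 without mitochondrial transcripts. That distance was 0.21 without wild type 1, in which the sum was lowest, and 0.57 without wild type 3.

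**Figure D3:**
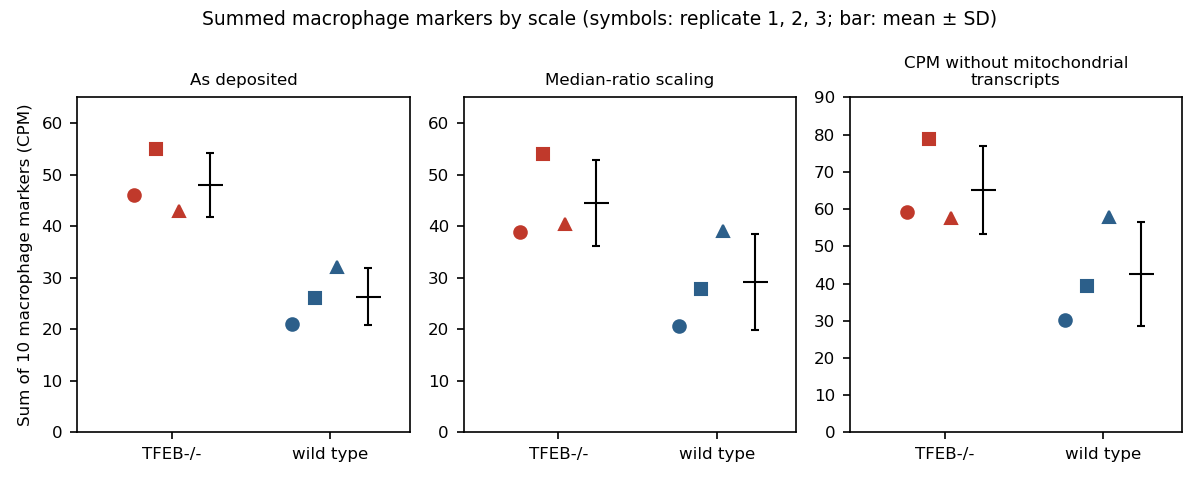
Summed CPM of the 10 macrophage markers (vertical axis) in each TFEB-/- library (red, left) and wild-type library (blue, right) on 3 scales, with mean and SD over 3 libraries in black. As deposited the groups are apart, 43 to 55 against 21 to 32 CPM, and on the other scales the highest wild-type library (wild type 3) reaches the lower TFEB-/- libraries.

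Lyz2 took a larger part of the summed markers in TFEB-/- libraries, at 30.4%, 36.4% and 37.2%, than in wild-type libraries, at 28.6%, 26.9% and 28.1%. These shares rest on sums of 21 to 55 CPM in whole numbers. Levels of different genes can be compared only per length. Divided by the longest coding transcript, Lyz2 had the highest mean of the 10 in both groups, 12.7 CPM per kb in TFEB-/- and 5.57 CPM per kb in wild type. Cd68 followed with 4.88 CPM per kb in TFEB-/- and 2.98 CPM per kb in wild type. Mrc1 was lowest in TFEB-/-, with 0.248 CPM per kb in TFEB-/- and 0.186 CPM per kb in wild type. Whether the authors had already scaled their values by transcript length is not stated, and Lyz2 was also the highest of the 10 in the values as deposited.

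Upstream sequence of 4 members is shown because they were the ones with a RefSeq promoter entry and means at least 1 CPM higher in TFEB-/-. RefSeq entries (GRCm38.p6) were matched for 6 of the 10 members. The windows searched were the 250 bases before the RefSeq gene start. Those of Lyz2, C1qc, Fcer1g and Mrc1 run into the longer gene of the GENCODE annotation, with the last 49 bases for Lyz2 and the last 151 for C1qc. Fcer1g and Mrc1 are not printed. Each line gives the bases of the window outside the GENCODE gene (201 for Lyz2, 99 for C1qc and 250 for the others), 5′ to 3′ on the strand of the gene. Matches to GAGGAA or its reverse complement TTCCTC, 1 form of the purine-rich sequence bound by the myeloid factor PU.1, are in capitals.
Lyz2 (chr10:117282322-117282522, minus strand): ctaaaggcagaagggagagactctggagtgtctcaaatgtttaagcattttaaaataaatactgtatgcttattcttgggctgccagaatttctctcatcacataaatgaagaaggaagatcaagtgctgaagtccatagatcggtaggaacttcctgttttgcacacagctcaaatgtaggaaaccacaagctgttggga
Cd68 (chr11:69666171-69666420, minus strand): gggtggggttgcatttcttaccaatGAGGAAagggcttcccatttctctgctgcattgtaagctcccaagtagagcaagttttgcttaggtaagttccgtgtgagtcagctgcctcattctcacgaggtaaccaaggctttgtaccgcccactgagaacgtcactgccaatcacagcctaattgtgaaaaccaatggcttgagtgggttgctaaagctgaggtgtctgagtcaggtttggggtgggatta
C1qb (chr4:136886201-136886450, minus strand): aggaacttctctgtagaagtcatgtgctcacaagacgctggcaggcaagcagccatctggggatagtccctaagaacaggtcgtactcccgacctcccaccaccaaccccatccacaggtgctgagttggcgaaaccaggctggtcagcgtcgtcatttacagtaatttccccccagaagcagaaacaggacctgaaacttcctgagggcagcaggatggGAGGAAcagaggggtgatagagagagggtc
C1qc (chr4:136893066-136893164, minus strand): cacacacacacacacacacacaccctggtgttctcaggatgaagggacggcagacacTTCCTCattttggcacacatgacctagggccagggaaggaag
GAGGAA was found once each in Cd68, C1qb and C1qc, 3 times in Mrc1 and in neither Lyz2 nor Fcer1g, and 23.3% of 32851 promoter windows of 250 bases held it on either strand. Shorter or variant forms of the PU.1 sequence were not searched. CACGTG, the palindromic core of the element that TFEB binds in lysosomal genes, was in none of the 6 windows and in 6.02% of all. A match of letters is not a binding site, and a window without one says nothing about binding of either factor.

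Other genes that mark macrophages and blood cells gave a mixed picture of these preparations. Ptprc (CD45), the surface phosphatase of nearly all white blood cells, was listed at 0 in all 6 libraries, as were Cd52, Cd53, Cx3cr1 and Timd4. Adgre1 (F4/80), a defining mouse macrophage antigen, was at 1 CPM in each TFEB-/- library and at 0, 0 and 1 CPM in wild-type libraries. Of 17 genes of resident cardiac macrophages 5 were listed at 0 throughout, and 0 of the 11 tested passed (limma, 0 also at an unadjusted p below 0.05). Their median log2 fold change was 0.25, close to that of all genes. Of 17 genes of monocytes and antigen presentation 0 of the 8 tested passed, with 0 at an unadjusted p below 0.05 and a median of 0.29. Cd74, the chaperone of MHC class II, was at 9, 10 and 12 CPM in TFEB-/- libraries and at 6, 7 and 11 CPM in wild-type libraries, which overlapped.

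Of 20 pan-leukocyte genes 8 were listed at 0 throughout and 0 of the 10 tested passed, with 2 at an unadjusted p below 0.05 in limma and a median log2 fold change of 0.39. Those were its most abundant members, Cyba, a subunit of the phagocyte NADPH oxidase that other cells also express, and Lcp1, the actin-bundling protein L-plastin. Cyba was at 28, 12 and 17 CPM in TFEB-/- libraries and at 10, 9 and 9 CPM in wild-type libraries (limma adjusted p = 0.184). Lcp1 was at 13, 5 and 7 CPM in TFEB-/- libraries and at 2, 2 and 3 CPM in wild-type libraries (limma adjusted p = 0.0977). Both were highest in TFEB-/- 1, whereas the macrophage sum was highest in TFEB-/- 2.

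Partners of the members were examined by pathway. Of 22 receptors and kinases that work with ITAM adaptors 9 were listed at 0 throughout and 0 of the 8 tested passed, with 2 at an unadjusted p below 0.05 in limma and a median log2 fold change of 0.61. The kinase Syk was at 33, 27 and 27 CPM in TFEB-/- libraries and at 20, 18 and 13 CPM in wild-type libraries (limma adjusted p = 0.102). A positive log2 fold change was found in 6 of the 8 tested. Lyn (5 CPM in each TFEB-/- library, against 6, 5 and 6 CPM in wild type) and Inpp5d (1 CPM in each, against 2, 1 and 2 CPM) went the other way. The receptor Trem2, not tested, was listed at 0 in each TFEB-/- library and at 1, 1 and 0 CPM in wild-type libraries. Of 11 ligands and partners of the CSF1 receptor 0 of 7 tested passed, with 1 at an unadjusted p below 0.05 and a median of 0.47. The ligand Csf1 was at 58, 32 and 50 CPM in TFEB-/- libraries and at 36, 25 and 38 CPM in wild-type libraries. Of 14 genes of lipopolysaccharide sensing 0 of 10 tested passed, with 1 at an unadjusted p below 0.05 and a median of 0.29. Neither Irak1, a kinase downstream of Toll-like receptors, nor the adaptor Ticam1 was called.

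Of 20 tested genes of the complement cascade 1 was higher, 0 lower and the median log2 fold change was 0.25. The called gene was Itgb2, the shared beta chain of leukocyte integrins, at 1 CPM in each TFEB-/- library and listed at 0 in each wild-type library, the same pattern as Tyrobp. C3, the central component of the cascade, was at 22, 28 and 25 CPM in TFEB-/- libraries and at 30, 20 and 23 CPM in wild-type libraries, which overlapped. Of 10 tested scavenger and mannose receptors 1 was higher and 0 lower, with 2 at an unadjusted p below 0.05 in limma and a median of 0.21. The called gene was Ly75 (DEC-205), an endocytic receptor of dendritic and other cells, at 2, 1 and 1 CPM in TFEB-/- libraries and listed at 0 in wild type (limma adjusted p = 0.0214). Like Tyrobp, Itgb2 and Ly75 entered the test only through their TFEB-/- values. Cd36, the most abundant gene of the scavenger list, went the other way, at 357, 583 and 475 CPM in TFEB-/- libraries. In wild-type libraries Cd36 was at 813, 760 and 751 CPM, and it was not called (limma adjusted p = 0.111). The scavenger list summed to 587, 829 and 724 CPM in TFEB-/- libraries, below the 1054, 982 and 956 CPM of wild type. Of 13 tested genes of lysozymes and lysosomal contents 0 passed, with 6 at an unadjusted p below 0.05 in limma and a median of 0.24. Apolipoprotein E (Apoe), which macrophages and other cells secrete, was at 91, 60 and 116 CPM in TFEB-/- libraries and at 28, 34 and 35 CPM in wild-type libraries (log2 fold change 1.40, SE 0.27, limma adjusted p = 0.0621).

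Set beside the other cell types, macrophage markers were a small part of these libraries. The sum of 12 cardiomyocyte markers was 83485 to 105377 CPM in TFEB-/- libraries and 70809 to 95776 CPM in wild-type libraries; the labelled cell type was thus the main one by these markers. Endothelial markers summed to 463, 504 and 580 CPM in TFEB-/- libraries and to 619, 528 and 566 CPM in wild-type libraries, overlapping as deposited. On the other scales they were lower in all TFEB-/- libraries, at 391, 496 and 546 in TFEB-/- against 608, 565 and 692 in wild type with median-ratio scaling, and at 595, 723 and 776 CPM in TFEB-/- against 894, 799 and 1022 CPM in wild type without mitochondrial transcripts. As deposited, 0 of 12 were called in limma, 2 had an unadjusted p below 0.05, 1 of 12 had a positive log2 fold change and the median was −0.16. Fibroblast markers summed to 325, 414 and 366 CPM in TFEB-/- libraries and to 271, 245 and 256 CPM in wild-type libraries, apart as deposited and overlapping on both other scales, with 2 of 10 called higher. One of these was Gsn (gelsolin), an actin-severing protein that other cells express too, at 202, 245 and 237 CPM in TFEB-/- libraries and at 139, 136 and 129 CPM in wild-type libraries (limma adjusted p = 0.0214), and it made up most of the sum. The other was Pdgfra, at 3 CPM in each TFEB-/- library and 2 CPM in each wild-type library. Mural cell markers summed to 569, 579 and 576 CPM in TFEB-/- libraries and to 476, 418 and 386 CPM in wild-type libraries, with 1 of 10 called higher, the pericyte proteoglycan Cspg4 (29, 21 and 21 CPM in TFEB-/-, against 10, 12 and 11 CPM in wild type). Only 4 of the 10 had a positive log2 fold change and the median was −0.10, so the higher sum rested mainly on Abcc9, a potassium channel subunit that heart muscle cells also express, and on smooth muscle actin Acta2. The mural sums stayed apart on both other scales. With median-ratio scaling they were 481, 569 and 542 in TFEB-/- against 468, 447 and 472 in wild type. Without mitochondrial transcripts they were 732, 830 and 771 CPM in TFEB-/- against 687, 632 and 697 CPM in wild type. The part of these other cell types in the macrophage result was not tested.

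In percent of the endothelial sum, the macrophage sum was 9.94%, 10.9% and 7.41% in TFEB-/- libraries and 3.39%, 4.92% and 5.65% in wild-type libraries, which did not overlap. Scaling of whole libraries leaves this ratio as it is, but its denominator, the endothelial sum, was itself lower in TFEB-/- on both other scales. In percent of the fibroblast sum it was 14.2%, 13.3% and 11.7% in TFEB-/- libraries and 7.75%, 10.6% and 12.5% in wild-type libraries, which overlapped through wild type 3. In percent of the cardiomyocyte sum it was 0.0437%, 0.0659% and 0.0430% in TFEB-/- libraries and 0.0219%, 0.0296% and 0.0452% in wild-type libraries, again overlapping through wild type 3. Markers of neutrophils and lymphocytes were at or near 0. The sums over neutrophil, B cell, and T and NK cell markers were 0 or 1 CPM in each TFEB-/- library and 0 to 2 CPM in each wild-type library. Markers of red cells and platelets summed to 7, 9 and 11 CPM in TFEB-/- libraries and to 36, 6 and 10 CPM in wild-type libraries, with globin transcripts making wild type 1 the highest, the library with the lowest macrophage sum.

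**Figure D4:**
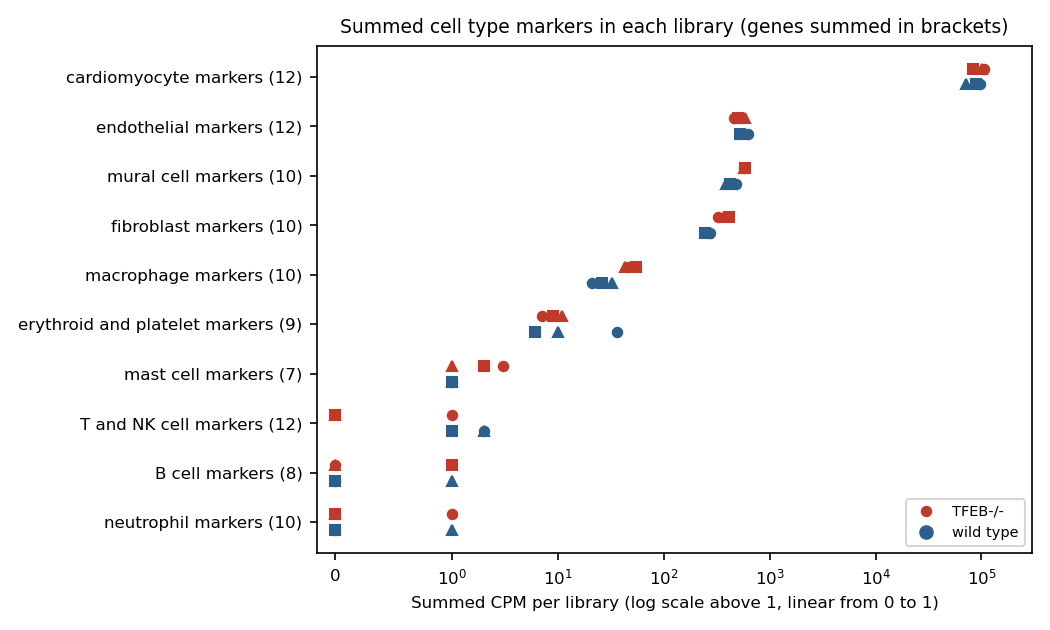
Summed CPM of marker genes of 10 cell types in each library (horizontal axis, logarithmic above 1 and linear from 0 to 1; circle, square and triangle are replicates 1, 2 and 3), TFEB-/- in red above wild type in blue. Macrophage markers, at 21 to 55 CPM, lie below the endothelial, mural and fibroblast sums and above those of mast cells, lymphocytes and neutrophils, which reach at most 3 CPM. Red cell and platelet markers lie at 6 to 36 CPM, above the macrophage sum in wild type 1 only.

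The genes whose profile over the 6 libraries was closest to that of the summed macrophage markers were Cdk6, Chpf2, Hlf, Ptgis and Prodh. Likeness was the root mean square difference of log2(CPM + 0.5) values centred on their mean, over 8583 genes that averaged 5 CPM or more, and was 0.138 to 0.181 for these genes, against a median of 0.476. Cdk6, a cell cycle kinase, was the closest, at 7 CPM in each TFEB-/- library and at 3, 4 and 4 CPM in wild-type libraries. Prodh, the proline dehydrogenase of mitochondria, was the most abundant, at 39, 45 and 44 CPM in TFEB-/- libraries and at 24, 28 and 28 CPM in wild-type libraries. None of these 5 genes is among the macrophage and leukocyte lists used here, but the choice of genes compared largely fixed this beforehand. The macrophage markers that make up the sum were left out of the comparison. The floor of 5 CPM removed most other genes of those lists. No conclusion can therefore be drawn from the absence of list genes.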

How the data were processed

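Poly(A) RNA of 6 cardiomyocyte preparations was sequenced from TruSeq Stranded mRNA libraries, per the labels' protocols. The deposited table holds a score per gene and library, which its name gives as CPM from kallisto and which the authors rounded to whole numbers. The submitters' processing notes name GRCm38, with no roles or versions of tools. Further scaling is not stated. Of 46517 entries, 26 names held as dates were restored by Ensembl ID, 303 missing names were replaced by the ID, and entries sharing a symbol were summed. Whole reads could not be recovered, so count models were not used.

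Libraries were grouped by title. TFEB-/- was compared with wild type on log2(CPM + 0.5) for genes that reached 1 CPM in 3 or more libraries, with limma 3.58.1 (lmFit, eBayes with trend) under R 4.3.3, genotype as the only term, and two-sided p-values adjusted by Benjamini-Hochberg over all 12437 genes. The script was first checked on simulated data. Single members were also compared by exact permutation (SciPy 1.17.1). Lists are described by counts, medians and sums, without tests. Alternatives were 2 pseudocounts, 2 filters, median-ratio scaling, CPM without mitochondrial transcripts, robust hyperparameters (statmod), a replicate block, and leaving out each library.

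Members and lists were chosen with earlier results of these data known. Named genes were Tfeb, the 10 members, called members of each other list (up to 3 a direction) or its 2 most abundant genes, and the 5 genes of closest profile. Those not printed were not called. Ptprc, Cd52, Cd53, Cx3cr1, Timd4, Adgre1, Lyz1, C3, Cd36, Abcc9, Acta2, Apoe, Trem2, Lyn and Inpp5d were added after their values were seen. Positions are from GENCODE M21 (GRCm38).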

Additional observations from a re-analysis of the deposited data

How the results depend on the processing

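Over the 14 alternatives the number of members called stayed at 1 of those tested, but not the same gene: it was Lyz2 with a filter of 5 CPM, where only Lyz2 and Csf1r were tested, and with robust hyperparameters, and Tyrobp in all others. The log2 fold change of Lyz2 ran from 0.91 to 1.28. No member changed sign, though Mrc1 was at 0 without TFEB-/- 2. The median of the tested members was 0.39 to 0.87 against 0.61, and 0.50 to 0.76 when a library was left out. Genes called lower numbered 200 with median-ratio scaling and 188 without mitochondrial transcripts, against 65. Genes called higher numbered 780 with robust hyperparameters, against 487. Without each library in turn 248 to 516 genes were called higher and 52 to 91 lower. The lowest counts of higher genes were 248 without wild type 3, 270 without wild type 2 and 272 without TFEB-/- 3. With the replicate block 159 genes were called higher and 26 lower. The call of Tfeb was lost with the replicate block (adjusted p = 0.112) and without any 1 library other than wild type 1 (adjusted p = 0.0589 to 0.109). Deviations of same-numbered libraries from their group means had correlations of 0.148, −0.0724 and 0.189 over 8594 genes. Those of differently numbered libraries ran from −0.28 to 0.107, so 0.148 and 0.189 were the highest of all. These values do not settle whether the numbers pair libraries. The labels name no pairing, and none was used in the main fit. The cause of these changes was not tested. Whole-number values limit all results on genes of a few CPM.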
